A study of Mus musculus with 10 samples.

Results

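Interleukin 12 (IL-12) and interleukin 18 (IL-18), their receptors and the transcription factor T-bet were followed as 10 genes in bulk RNA-seq of the mouse RPE/choroid complex, which is the pigmented epithelium under the retina (RPE) and the vascular layer behind it. The 10 genes, Il12a, Il12b, Il12rb1, Il12rb2, Il27ra, Il18, Il18bp, Il18r1, Il18rap and Tbx21, were matched by symbol among the 55487 distinct genes of the count table, and all 10 were found. They were selected on their levels and their differences between ADQ and control in these same libraries, within a known pathway, so their differences between groups are given as a description and support no test of their own. Of the 10, 9 passed the filter on low counts and Il12a did not.

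The data compare 5 control with 5 ADQ samples. All 10 came from iDTR mice (C57BL/6 of the line Gt(ROSA)26Sortm1(HBEGF)Awai/J), which carry a diphtheria toxin receptor that Cre switches on, and all received diphtheria toxin into the peritoneum. The ADQ mice also carried Adiponectin-Cre, which is driven by the promoter of the fat cell hormone adiponectin, and had toxin every day for 7 weeks; the schedule of the controls is not given in the sources used here. Controls carried the iDTR allele without Cre, so the receptor allele and the toxin are common to both groups, while Cre itself is not. Age is not given, and no label says that each sample was a separate animal, so the spread between samples may be partly technical.

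IL-12 is a secreted pair of chains, p35 from Il12a and p40 from Il12b, made mainly by macrophages and dendritic cells. Its receptor on T and NK cells joins the chains of Il12rb1 and Il12rb2 and signals through JAK2, TYK2 and STAT4 to interferon gamma. IL-18 is made as a precursor that caspase-1 cleaves, acts through Il18r1 with Il18rap and the adaptor MyD88, and is neutralised by the soluble protein of Il18bp, which interferon gamma is known to induce. T-bet, the product of Tbx21, directs T and NK cells towards making interferon gamma, and IL-18 itself has been studied in the RPE and choroid for its part in choroidal vessel growth.

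Of the members, 8 had a start-site window in RefSeq (build GRCm38.p6); Il12rb1 and Il27ra had none. The last 130 bases before the start are shown for Il12b, Il18rap and Tbx21, whose ADQ means were more than 2-fold the control means, and for Il12rb2, the receptor partner that differed less. Each reads 5′ to 3′ on the strand of its gene, and capitals mark matches to a motif.
Il12b: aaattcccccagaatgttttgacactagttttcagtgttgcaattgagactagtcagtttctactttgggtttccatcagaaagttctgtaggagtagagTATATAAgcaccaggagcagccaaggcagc
Il18rap: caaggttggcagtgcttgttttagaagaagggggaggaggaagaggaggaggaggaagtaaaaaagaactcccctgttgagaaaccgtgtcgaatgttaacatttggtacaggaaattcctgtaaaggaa
Tbx21: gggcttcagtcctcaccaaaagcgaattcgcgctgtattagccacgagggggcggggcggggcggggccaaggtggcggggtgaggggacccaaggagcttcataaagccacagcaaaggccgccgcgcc
Il12rb2: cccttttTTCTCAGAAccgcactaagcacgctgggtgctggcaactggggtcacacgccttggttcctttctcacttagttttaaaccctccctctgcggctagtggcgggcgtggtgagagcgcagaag
They lie at chr11:44399933-44400062 (forward strand), chr1:40515232-40515361 (forward), chr11:97115332-97115461 (reverse) and chr6:67376189-67376318 (reverse). Motifs were searched on both strands in the 250 bases before each start, each only in the 1 form given here. Other forms of these sites were not searched, so a lack of matches does not show that a site is absent. The interferon gamma activated site bound by STAT factors, TTCNNNGAA, was found once in the Il12rb2 window, 123 to 115 bases before the start, and at 2 places in 1 of the 3 Il18r1 windows; 7.02% of all 32851 windows held it. A match to the TATA box sequence, TATANAA, lay 30 to 24 bases before the start of Il12b. Of all windows 10.4% held a match anywhere in the 250 bases, on either strand, and the share at that position was not counted. In the Il18 window the sequence matched farther off, 201 to 195 and 136 to 130 bases before the start. The interferon response core (GAAA, any 2 bases, GAAA; 2.98% of all windows), the T-box half-site AGGTGTGA (1.12%) and the kappa B form (GGG, any 2 bases, TTTCC; 1.41%) had no match in any of the 11 windows of members. The RefSeq starts of Il18 and Il18bp match no GENCODE transcript start, and the Il18bp window and 2 of the 3 Il18r1 windows overlap exons of those genes.

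Levels are given as CPM (counts per 1 M counts, M being mega), scaled between libraries by TMM, and libraries held 43.6 to 64.1 M counts. Markers of the tissue were present in every library: the sum of 8 RPE markers lay between 33210 and 48403 CPM in controls and between 28361 and 43082 CPM in ADQ libraries, with none at 0. Control 5 stood apart from the other controls in several members and in T and NK cell markers, so results are given with and without it. It also went against its label in fat cell markers: the 7 adipocyte markers summed to 6.42 CPM in control 5, 65.6 to 154.9 CPM in controls 1 to 4 and 7.36 to 24.9 CPM in ADQ. The part of this library's difference in the results was not tested. A gene is called where its edgeR quasi-likelihood p, adjusted over all 20684 genes tested, is under 0.05.

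Among all genes 0.827% were called in either direction and 0.74% higher in ADQ. Of the 9 members tested 2 were called, Il12rb1 and Il18bp, both higher in ADQ. The ADQ values lay wholly above the control values in 4 members, Il12rb1, Il18bp, Il27ra and Tbx21, where 2.09% of all genes did so. These counts describe a set chosen in view of this contrast. The median log2 fold change, ADQ over control, was 1.26 over the 9 members tested and 0.01 over all genes. Only Il18, of those 9, had a log2 fold change below 0. The plot of each member by library shows the spread behind these counts.

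**Figure D1:**
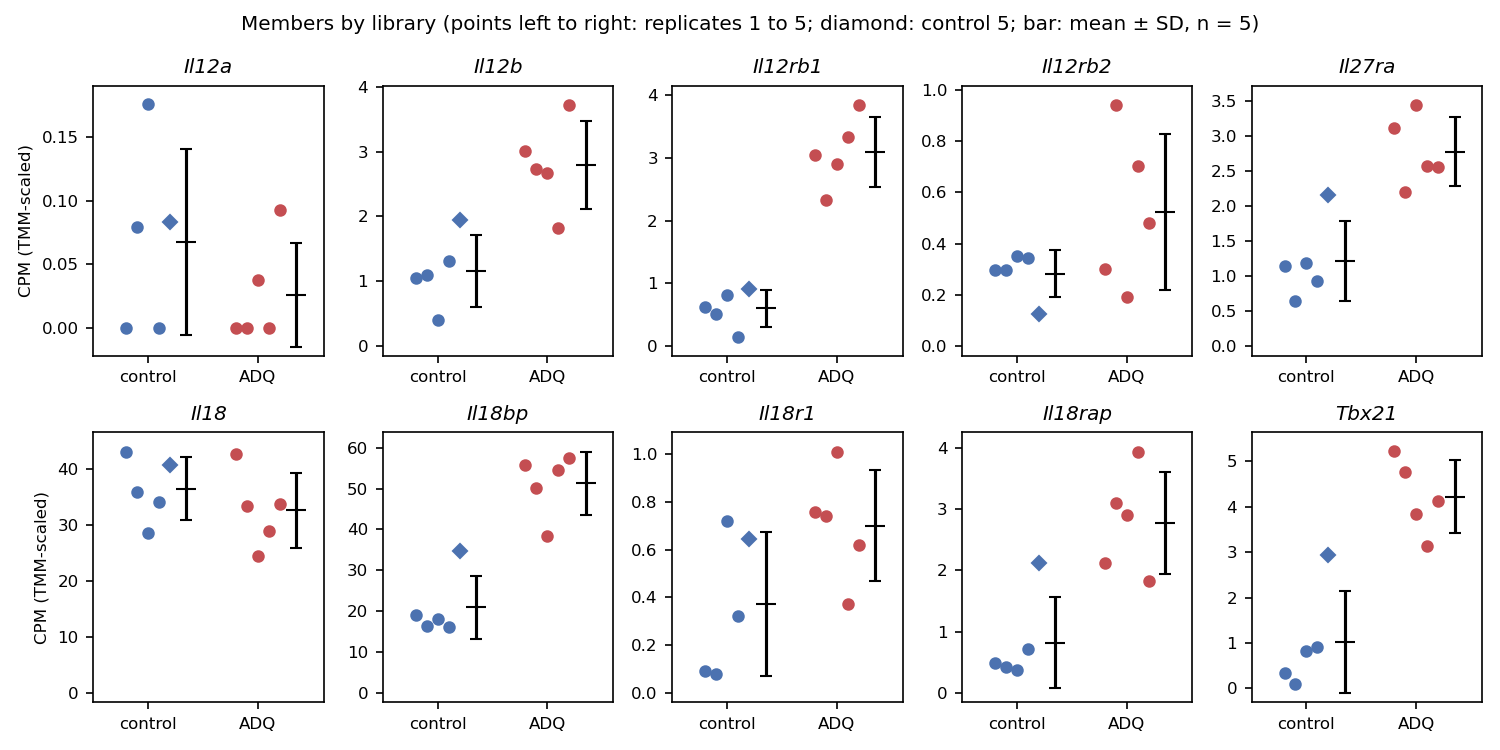
Level of each of the 10 genes in CPM (vertical axis, its own scale in each panel) in the 5 control (blue) and 5 ADQ (red) libraries, with the mean and SD as a black bar (n = 5). Il12rb1, Il18bp, Il27ra and Tbx21 show no overlap between groups, Il18 overlaps over most of its range, and control 5 (diamond) is the highest control in 6 of the 10 genes.

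The ligand chains of IL-12 were unequal. Il12a (chromosome 3, 68690644 to 68698547, forward strand) was close to absent: it had 0, 4, 9, 0 and 4 counts in controls 1 to 5 and 0, 0, 2, 0 and 6 in ADQ 1 to 5. A count of 0 allows up to 0.0687 CPM in control 1, the largest such limit, by counting error alone, and no fold change is given for this gene. Il12b (chromosome 11, 44400063 to 44414033, forward strand) was at 1.05, 1.11, 0.41, 1.32 and 1.95 CPM in controls 1 to 5. In ADQ 1 to 5 it was at 3.01, 2.74, 2.67, 1.82 and 3.71 CPM. The groups overlapped only between control 5, the highest control, and ADQ 4, the lowest ADQ library. The means were 1.17 ± 0.555 and 2.79 ± 0.68 CPM (SD, n = 5), a log2 fold change of 1.26 (SE 0.34), and the gene was not called. Without control 5 the log2 fold change was 1.52 and Il12b was called.

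Of the receptor chains, Il12rb1 was called and Il12rb2 and Il27ra were not; the difference between chains was not tested. Il12rb1, the chain shared by the IL-12 and IL-23 receptors (chromosome 8, 70808449 to 70821424, forward strand), had 27, 26, 42, 7 and 44 counts in controls 1 to 5. In ADQ 1 to 5 it had 141, 119, 152, 152 and 248 counts. The lowest ADQ library thus held more than 2 times the counts of the highest control. In CPM the ranges were 0.151 to 0.914 in control and 2.33 to 3.84 in ADQ, with means of 0.603 ± 0.299 and 3.09 ± 0.557 (SD, n = 5). The fold was 5.10 (log2 fold change 2.35, SE 0.36), the largest of the 9 members in the fit of all libraries; without control 5 that of Tbx21 was larger. It was called when each of the 10 libraries was left out in turn, with log2 fold changes from 2.10 to 2.55.

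Il12rb2, the signalling chain that T and NK cells add when activated (chromosome 6, 67291318 to 67376188, reverse strand), stayed low. It was at 0.298, 0.296, 0.351, 0.345 and 0.125 CPM in controls 1 to 5 and at 0.303, 0.939, 0.191, 0.703 and 0.48 CPM in ADQ 1 to 5. ADQ 2 and ADQ 4 were the high libraries, ADQ 1 and ADQ 3 lay within or below the range of controls 1 to 4, and the gene was not called (log2 fold change 0.88, SE 0.46). Its value is uncertain, because 1519 of its 3794 exon bases overlap exons of Serbp1 on the other strand. Serbp1 had 6271 to 9301 counts per library against 6 to 48 for Il12rb2, and whether the counting used strand is not given in the sources used here.

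Il27ra encodes the receptor chain for IL-27, which pairs with the product of Il6st (chromosome 8, 84030294 to 84042589, reverse strand). It was at 1.15, 0.651, 1.19, 0.927 and 2.16 CPM in controls 1 to 5 and at 3.12, 2.19, 3.43, 2.57 and 2.55 CPM in ADQ 1 to 5. All ADQ values were above all controls, with control 5 just below ADQ 2. The log2 fold change was 1.19 (SE 0.29), without a call; leaving out control 5 gave 1.5 and a call.

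Of IL-18 and its binding protein, the binding protein alone was called. Il18 (chromosome 9, 50554827 to 50581840, forward strand) was at 43.1, 36.0, 28.6, 34.1 and 40.7 CPM in controls 1 to 5. In ADQ 1 to 5 it was at 42.6, 33.3, 24.5, 28.9 and 33.7 CPM. The groups overlapped over most of their range, with a log2 fold change of -0.16 (SE 0.14) and no call. Il18bp (chromosome 7, 102014885 to 102018690, reverse strand) was at 19.1, 16.3, 18.2, 16.1 and 34.6 CPM in controls 1 to 5 and at 55.8, 50.2, 38.4, 54.6 and 57.4 CPM in ADQ 1 to 5. Controls 1 to 4 lay close together, control 5 lay at 1.99 times their mean, and every ADQ library was higher still. The means were 20.9 ± 7.8 and 51.3 ± 7.69 CPM (SD, n = 5), a 2.46-fold difference (log2 fold change 1.30, SE 0.21). Il18bp was called without each of the 10 libraries in turn, with log2 fold changes from 1.22 to 1.56. Only 80 of its 3026 exon bases overlap exons of Numa1 on the other strand.

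The count of Il18bp over that of Il18 puts ligand and decoy in 1 number per library, on a scale that needs no normalization between libraries. It was 0.444, 0.453, 0.636, 0.474 and 0.851 in controls 1 to 5, so that Il18 counts exceeded Il18bp counts in every control. In ADQ 1 to 5 it was 1.31, 1.51, 1.57, 1.89 and 1.70, so that the order was turned round in every ADQ library. The means were 0.572 ± 0.175 and 1.6 ± 0.218 (SD, n = 5). These are ratios of read counts. Per exon length, which is 1.03 kb for Il18 and 3.03 kb for Il18bp, Il18 remained the more abundant of the pair in both groups. These lengths merge the exons of all annotated transcripts. The order therefore depends on the length used, and which transcripts were present was not tested.

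**Figure D2:**
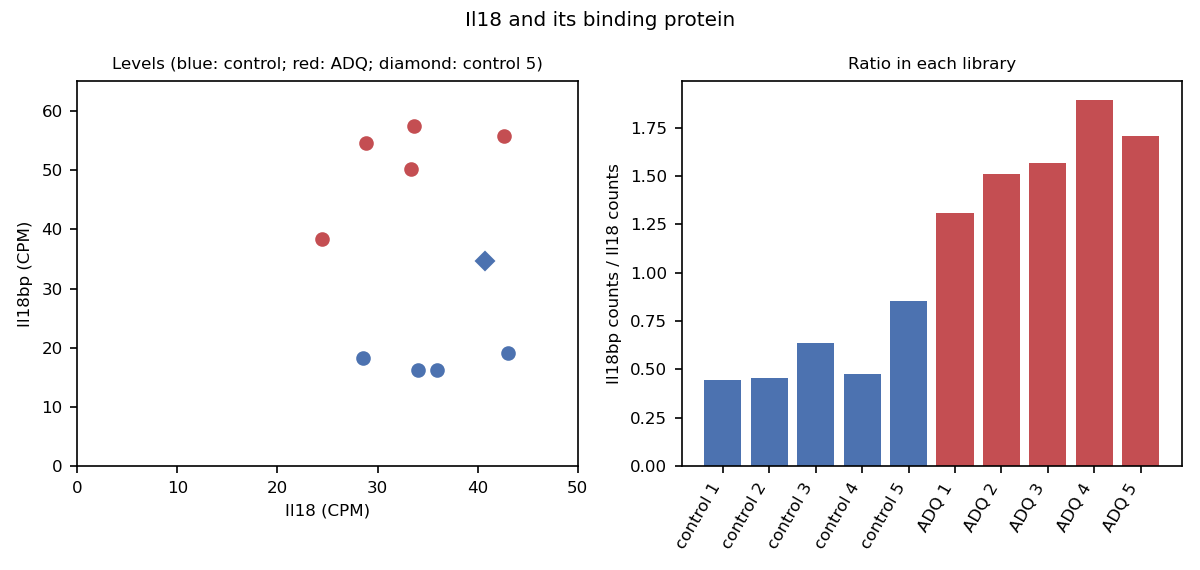
Left, Il18bp against Il18 in CPM, 1 point per library (blue, control; red, ADQ; diamond, control 5). Right, the ratio of their counts in each library, which lies between 0.444 and 0.851 for controls and between 1.31 and 1.89 for ADQ.

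The 2 chains of the IL-18 receptor lie next to each other on chromosome 1 and were both low. Il18r1, the binding chain (40465552 to 40500854, forward strand), was at 0.0917, 0.0789, 0.722, 0.323 and 0.644 CPM in controls 1 to 5 and at 0.757, 0.743, 1.01, 0.374 and 0.619 CPM in ADQ 1 to 5. Controls 3 and 5 lay among the ADQ libraries, and the log2 fold change of 0.90 (SE 0.54) was not called. Il18rap, the chain needed for signalling (40515362 to 40551705, forward strand), was at 0.481, 0.414, 0.371, 0.712 and 2.12 CPM in controls 1 to 5. In ADQ 1 to 5 it was at 2.12, 3.09, 2.9, 3.93 and 1.83 CPM. Control 5 lay above ADQ 5 and level with ADQ 1, while the other controls lay below all ADQ libraries. With all libraries the log2 fold change was 1.76 (SE 0.46) and not called; without control 5 it was 2.48 and called.

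Tbx21 (chromosome 11, 97098071 to 97115331, reverse strand) had a control SD larger than its control mean. It was at 0.344, 0.0987, 0.819, 0.906 and 2.93 CPM in controls 1 to 5, and at 5.21, 4.75, 3.83, 3.14 and 4.13 CPM in ADQ 1 to 5. Control 5 held 5.41 times the mean of the other controls and came close to ADQ 4 without reaching it. The means were 1.02 ± 1.12 and 4.22 ± 0.805 CPM (SD, n = 5; log2 fold change 2.04, SE 0.65). The gene was not called with all libraries. Without control 5 its log2 fold change was 2.95 and it was called.

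In all, 6 members were called without control 5 (Il12rb1, Il18bp, Il12b, Il18rap, Il27ra and Tbx21), where 1.7% of all genes were called. Their ADQ values also lay wholly above controls 1 to 4, as they did in 3.54% of all genes. Control 5 was the highest control in each of these 6, so leaving it out widens each difference by itself. With edgeR, leaving out any other single library kept the same 2 members called, where the share of all genes called was 0.454, 0.649, 0.81 and 0.369% without controls 1 to 4 and 0.715, 0.384, 0.47, 0.413 and 0.778% without ADQ 1 to 5. With all libraries DESeq2 called 5 members (1.88% of all genes), voom with quality weights 5 (3.52%) and edgeR without a filter on low counts 4 (0.569%).

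Per kilobase of exon, the only scale on which the members are compared with each other, the order in control ran from Il18 through Il18bp, Il12b, Tbx21, Il27ra, Il12rb1, Il18rap, Il18r1 and Il12rb2 to Il12a. Il18 was at 35.4 ± 5.52 and Il18bp at 6.90 ± 2.58 CPM per kb, and no other member reached 1 as a mean; the library ranges of every pair of neighbours below Il18bp overlapped. In ADQ, Tbx21 at 1.69 ± 0.324 and Il12b at 1.42 ± 0.346 CPM per kb changed places, within overlapping ranges, and the rest kept their order. Il18bp there was at 17.0 ± 2.54 and Il18 at 31.6 ± 6.55 CPM per kb, still apart. Orders on this scale depend on exon lengths merged over all annotated transcripts. Among the receptor chains in ADQ, Il18rap at 0.411 ± 0.124 CPM per kb lay above Il18r1 at 0.145 ± 0.0481 with no overlap.

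Markers of T and NK cells, which carry the receptors of this axis, were summed in each library. The 12 T cell markers summed to 26.3 to 38.6 CPM in controls 1 to 4, 86.3 CPM in control 5 and 90.6 to 122.8 CPM in ADQ, with no marker at 0 in any library. With edgeR 0 of the 12 were called and 10 had an unadjusted p under 0.05; DESeq2 called 4 and voom with quality weights 11. Over all genes 2856 of 20684 had an unadjusted p under 0.05. The 8 NK cell markers summed to 9.47 to 15.1 CPM in controls 1 to 4, 46.7 CPM in control 5 and 37.3 to 54.8 CPM in ADQ, so that control 5 lay among the ADQ libraries, with Ncr1 at 0 in control 4. With edgeR 0 of these 8 were called, 5 had an unadjusted p under 0.05, and DESeq2 called 1 and voom 3. Nkg7, with means of 11.3 CPM in control and 30.7 CPM in ADQ, made up most of the mean sum in both groups. The log2 fold change was above 0 in 7 of the 8, while Klrb1c went from 0.494 ± 0.178 to 0.464 ± 0.169 CPM. Ncr1 was low in both groups, at 0.103 ± 0.0634 and 0.38 ± 0.161 CPM, with all ADQ values above all controls. The sum therefore mostly follows Nkg7. In bulk RNA more cells of a type and more RNA per cell cannot be told apart.

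Cells that make IL-12 were represented by dendritic cell and macrophage markers. The 8 dendritic cell markers summed to 45.5 to 61.2 CPM in control and 71.2 to 82.3 CPM in ADQ, and control 5, at 48.2 CPM, lay within the other controls. Of these 8, edgeR called only Xcr1, a chemokine receptor of cross-presenting dendritic cells, which went from 0.835 ± 0.446 to 3.59 ± 0.68 CPM. The log2 fold change was above 0 in 7 of the 8, while Cd209a went from 2.54 ± 1.22 to 1.56 ± 0.979 CPM. Itgax, at 32.8 ± 6.05 and 47.0 ± 3.97 CPM, made up most of the sum in both groups. The 10 macrophage markers summed to 1465 to 1832 CPM in control and 1513 to 2294 CPM in ADQ, with overlap, and edgeR called 2 of the 10 higher. Corneal and conjunctival keratins, a mark of other eye tissue, were lower in every ADQ library (0.483 to 1.06 CPM in sum) than in any control (1.62 to 1089 CPM). The part of any of these cell types or tissues in the members' differences was not tested.

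Control 5, high in the T cell marker sum, was also the highest control in Tbx21, Il18rap, Il27ra, Il18bp and Il12rb1. It lay at 5.41 (Tbx21), 4.29 (Il18rap), 2.21 (Il27ra), 1.99 (Il18bp) and 1.74 (Il12rb1) times the mean of controls 1 to 4. Control 5 was the highest control in Il12b too, at 2.01 times that mean, but the lowest in Il12rb2, at 0.387 times. Il12rb1 in control 5, at 0.914 CPM, was near the 0.819 CPM of control 3. These factors rest on 1 library, and the differences between members were not tested. Per count of Cd3e, a T cell receptor component, Tbx21 was at 0.337 ± 0.2 in control and 0.434 ± 0.0794 in ADQ, with overlap (SD, n = 5). Il18rap per Cd3e was at 0.329 ± 0.108 and 0.29 ± 0.105, also overlapping. Il27ra per Cd3e was at 0.632 ± 0.327 in control and 0.29 ± 0.0692 in ADQ, where controls 1 to 3 lay above all ADQ libraries and controls 4 and 5 among them. Il12rb1 per Cd3e was at 0.466, 0.619, 0.656, 0.047 and 0.115 in controls 1 to 5 and from 0.203 to 0.53 in ADQ. Its means were 0.381 ± 0.284 in control and 0.334 ± 0.129 in ADQ, with overlap. Controls 2 and 3 lay above all ADQ libraries in this ratio. The 2 controls with the most Cd3e counts, 4 and 5, had the least Il12rb1 per Cd3e, and lay below all ADQ libraries. They were also the 2 lowest controls in Il18rap per Cd3e and in Il27ra per Cd3e.

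**Figure D3:**
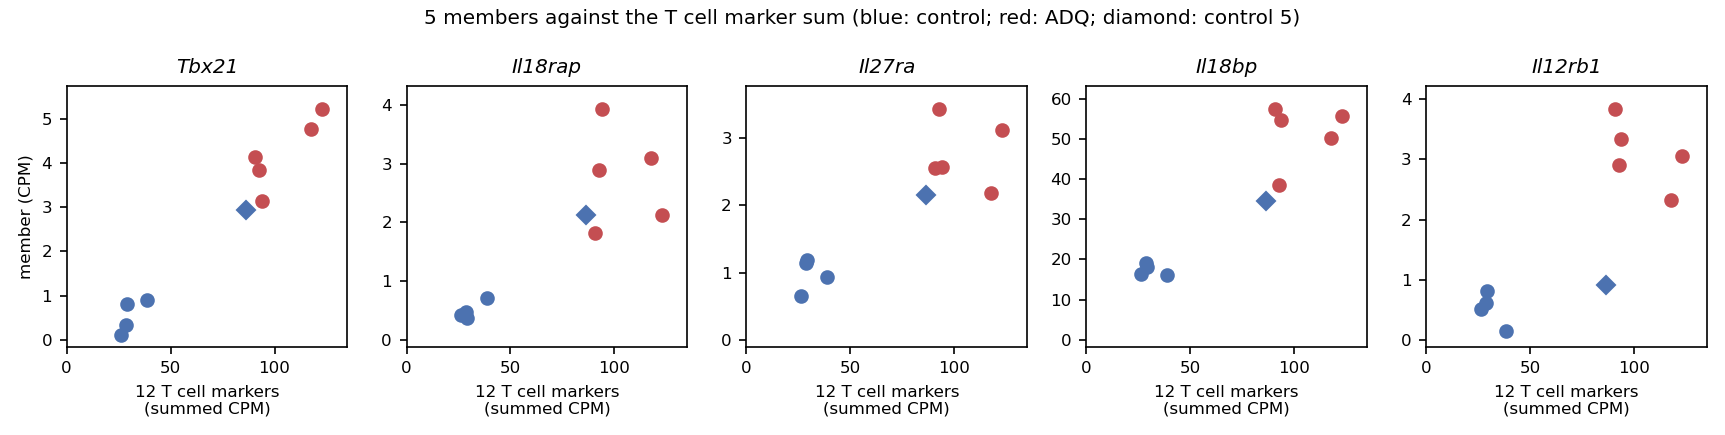
Level of 5 members in CPM (vertical axes) against the summed CPM of 12 T cell markers (horizontal axes), 1 point per library (blue, control; red, ADQ; diamond, control 5). On the vertical axes control 5 lies near the ADQ libraries in Tbx21, Il18rap and Il27ra and between the groups in Il18bp. In Il12rb1 it lies just above the other controls.

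With the mean T cell marker level as a covariate the log2 fold change was 0.28 (SE 0.63) for Tbx21, 0.31 (SE 0.44) for Il18rap, 0.34 (SE 0.40) for Il27ra and 0.50 (SE 0.52) for Il12b. It was 0.60 (SE 0.21) for Il18bp and 2.02 (SE 0.65) for Il12rb1. In that fit 0 of 20684 genes and 0 members were called with edgeR, while 2560 genes and 2 members had an unadjusted p under 0.05. The covariate is the mean log2 CPM of the 12 T cell markers, which is another measure than their sum. The sums of the groups do not overlap, while single markers did so without overlap in 2 of 12. All 12 had a log2 fold change above 0, so group and covariate share information and this fit cannot fully separate them. The covariate raised the log2 fold change of Il12rb2 from 0.88 to 1.83 (SE 0.94). It lowered that of Il18r1 from 0.90 to 0.12 (SE 0.91) and that of Il18 from -0.16 to -0.40 (SE 0.24). With the macrophage marker level as a covariate 0 members were called as well, where 0.106% of all genes were called. An unadjusted p under 0.05 was found there for 2 members and for 4873 of the 20684 genes. The log2 fold change of Il12rb1 in that fit was 2.34 (SE 0.65), that of Il18bp 0.67 (SE 0.33) and that of Il18 -0.82 (SE 0.20).

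**Figure D4:**
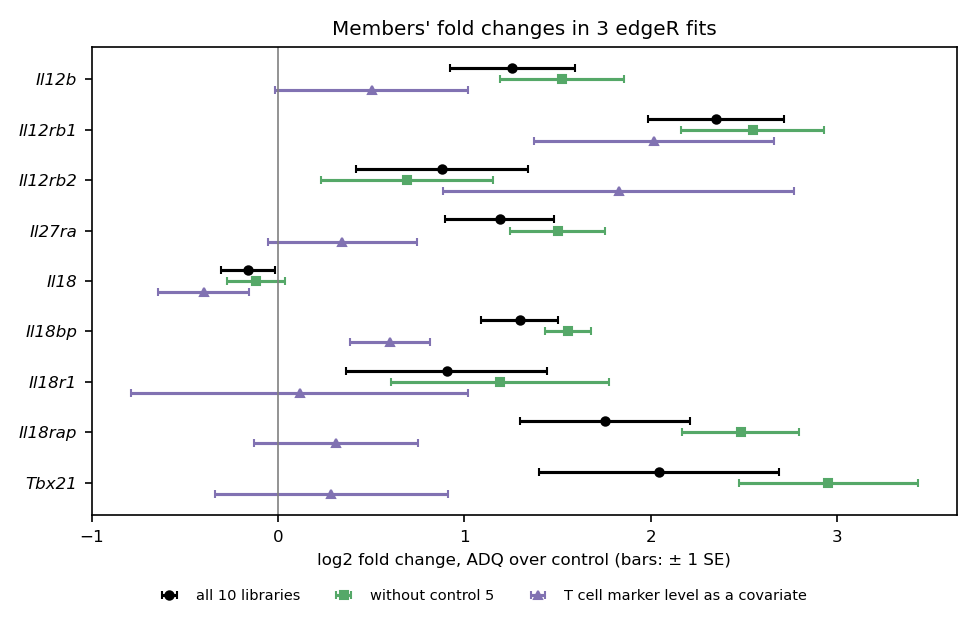
Log2 fold change, ADQ over control, of the 9 members tested (points; bars, 1 SE) in the edgeR fit of all 10 libraries (black), without control 5 (green) and with the T cell marker level as a covariate (purple). Il12rb1 stays at 2.02 or above in the 3 fits, while Tbx21 runs from 0.28 to 2.95 and Il18 stays below 0.

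Other genes of the pathway were taken from 7 lists of 67 genes besides the members, 65 of them tested; the lists were written with earlier results of these data known. Of the 65, edgeR called 10, all higher in ADQ, where 0.74% of all genes were called higher, and the median log2 fold change was 0.46. Leaving out control 5 raised the 10 to 22, and leaving out each other library gave 7 to 9.

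On the IL-18 side 1 of 10 processing and signalling genes was called. Casp1, whose protease cleaves the IL-18 precursor, rose 1.72-fold from 8.16 ± 0.303 to 14.0 ± 1.45 CPM (edgeR adjusted p = 0.00352), although Il18 itself did not pass. Casp1 was called without each of the 10 libraries in turn.

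Of the 13 genes known as targets of T-bet and STAT4, or as interferon gamma and its receptor, edgeR called 0, while 7 had an unadjusted p under 0.05, DESeq2 called 3 and voom 5. The 2 most abundant were the interferon gamma receptor chains Ifngr2, at 71.4 ± 5.1 and 74.2 ± 5.43 CPM, and Ifngr1, at 65.9 ± 7.17 and 77.0 ± 9.74 CPM. Ifng itself, named after its values were seen, averaged 0.139 ± 0.194 CPM in controls and 0.825 ± 0.199 CPM in ADQ libraries, with no overlap between groups (log2 fold change 2.55, SE 0.81, edgeR adjusted p = 0.192). The median log2 fold change of the 13 was 0.96, 12 of them above 0.

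Genes listed as interferon gamma response genes held most of the calls: 8 of 13 were called higher, and the ADQ values of 11 lay above all controls. Which signal raised them was not tested. Gbp3 and Gbp2, guanylate-binding proteins, rose 2.99- and 3.20-fold. Cd274, which encodes the checkpoint ligand PD-L1, rose 3.05-fold from 17.7 ± 3.37 to 54.1 ± 13.3 CPM. Irf1 rose 2.07-fold and Tap1, the peptide transporter of antigen presentation, 3.09-fold. Psmb9, an immunoproteasome subunit, rose 2.41-fold, and was still called in 3 of the 10 fits that left out 1 library. Irf8 and Psmb8, the other 2 called, were called in 5 and 1 of those 10 fits. The first 5 named were called in all 10.

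In 3 more lists, of IL-12 family partners, of the other IL-1 receptor family and of lineage factors, edgeR called 0 genes. Of 5 IL-12 family partners 3 were tested, 1 had an unadjusted p under 0.05 and DESeq2 and voom called 0; Il6st was at 108.6 ± 17.3 and 120.1 ± 23.7 CPM, and Ebi3, the second chain of IL-27, at 1.93 ± 0.481 and 2.66 ± 0.498. Of 9 other genes of the IL-1 receptor family and its ligands 1 had an unadjusted p under 0.05, a share near that of all genes, and DESeq2 and voom called 0. Il33, an alarmin, was at 16.5 ± 3.28 and 11.9 ± 4.46 CPM there, and Sigirr, a brake on IL-18 signalling, at 12.04 ± 1.38 and 10.6 ± 1.61. The median log2 fold change of these 9 was -0.17. Among 10 lineage factors beside T-bet 7 had an unadjusted p under 0.05, DESeq2 called 1 and voom 2; Id2 was at 264.2 ± 58.8 and 339.7 ± 34.1 CPM and Bcl6 at 17.9 ± 4.24 and 21.9 ± 5.71.

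To name the genes most like a member in pattern, the SD over the 10 libraries of the log2 ratio between gene and member was used, over 13463 protein-coding genes of at least 1 CPM. For Il18bp the smallest were Slc2a6, a sugar transporter (SD 0.13), H2-Ob, a regulator of class II antigen loading (0.20), and Psmb9 (0.21), where the median gene had 0.83. For Tbx21 they were Dnase1l3, a DNase of dendritic cells and macrophages (0.40), Cd3d, of the T cell receptor complex (0.47), and Sh2d2a, a T cell adaptor (0.57), where the median gene had 1.81. For Il12rb1 they were Cd226, an activating receptor of T and NK cells (0.68), Gbp3 (0.70) and Gbp6 (0.71), where the median gene had 1.46. The SDs are not compared between members, since counting noise is larger for Il12rb1 and Tbx21 than for Il18bp.

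The authors' deposited table lists 7 of the 10 members, leaving out Il12a, Il12rb2 and Il18r1. It gives 6 of these 7 an adjusted p under 0.05, where 5.42% of its 15860 genes have one, and Il18 is the member listed without one. In the authors' deposited table the log2 fold change was 2.76 for Il12rb1 (interval 1.96 to 3.56), 3.22 for Tbx21 (1.96 to 4.49) and 2.33 for Il18rap (1.52 to 3.14). For Il18bp, Il27ra and Il12b the authors' deposited table gives 1.48, 1.43 and 1.12. It rests on the same 10 libraries and is no separate evidence.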

How the data were processed

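RNA from 5 control and 5 ADQ samples was taken into TRIzol, purified on NucleoSpin columns and amplified as cDNA by SMARTer, per the labels' protocols. The submitters' processing notes name bcl2fastq, DRAGEN, edgeR, limma and GRCm38, with no versions or roles. The deposited counts are whole numbers per Ensembl gene, not normalized; 287 repeated entries of 55774 were removed. In the authors' deposited table are log2 CPM, log2 fold changes with intervals, p-values raw and adjusted, and scores (a moderated statistic, log odds and a signed fold), which were not used.

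All genes of the count table entered edgeR 4.0.16 under R 4.3.3: filterByExpr (minimum count 10, minimum total 15), TMM, a robust quasi-likelihood fit of group alone, and Benjamini-Hochberg adjustment at 0.05. Standard errors were derived as |log2 fold change| divided by the root of F. Log2 CPM used a prior count of 2. No 2 libraries were duplicates (smallest chi-square 33.9 per degree of freedom). Members and lists were chosen with earlier results of these data known. Named were all members; of each list up to 6 called genes by smallest p, or else the 2 of highest mean CPM; and the 3 genes most like Il12rb1, Il18bp and Tbx21 (smallest SD of the log2 ratio, antigen receptor segments and predicted genes left out). GENCODE M21 (GRCm38), with 99.4% of the identifiers matched, gave positions and exon lengths. Alternatives were other scalings and filters, DESeq2 1.42.0, limma 3.58.1 voom with quality weights, a fit that was not robust, a replicate block, 3 marker covariates and each library left out. Limits for a count of 0 (3 counts) cover counting error only. The result of 1 of the 10 pathway genes called, with the count of its list, is not reported here.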

Additional observations from a re-analysis of the deposited data

Results flagged for a closer look

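Outlying libraries were looked for in 50 groups of 5, and 12 of the groups had 1, where chance gives about 1 in 20 groups; the groups share libraries and are not independent. Of the 12, 6 were in control 5. It was high in Il18bp (34.6 CPM, others 16.1 to 19.1), Il18rap (2.12 CPM, others 0.371 to 0.712) and Tbx21 (2.93 CPM, others 0.0987 to 0.906), and low in Il12rb2 (0.125 CPM, others 0.296 to 0.351). The same library was high in the summed T cell markers (86.3 CPM, others 26.3 to 38.6) and NK cell and ILC1 markers (46.7 CPM, others 9.47 to 15.1).

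Dendritic cell markers were high in control 2 (61.2 CPM, others 45.5 to 49.2) and in ADQ 2 (82.3 CPM, others 71.2 to 73.2). Other tissue stood apart in control 1 for rod markers (1661 CPM, others 294 to 393), in control 3 for corneal and conjunctival keratins (1089 CPM, others 1.62 to 306), in ADQ 2 for the same keratins (1.06 CPM, others 0.483 to 0.627) and in ADQ 5 for skeletal muscle markers (284 CPM, others 1334 to 1598).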

How the results depend on the processing

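In all, 22 alternatives were run, and no member and no called pathway gene changed sign in any of them. The called members numbered 2 in the report; they were 4 with no low-count filter, 5 with DESeq2, 5 with voom and quality weights, 0 with the T cell marker covariate, 0 with the macrophage marker covariate, and 2 to 6 with 1 library left out. Pathway genes called, 10 in the report, were 19 with DESeq2, 23 with voom, 0 with the T cell covariate (22 at an unadjusted p under 0.05), 1 with the macrophage covariate, and 7 to 22 with 1 library left out. Of all genes, 171 in the report, 773 were called with DESeq2, 728 with voom, 0 with the T cell covariate, 22 with the macrophage covariate, and 78 to 357 with 1 library left out; counts moved by over 1.5 times without control 1 (96), control 4 (78), control 5 (357), ADQ 2 (81), ADQ 3 (99) or ADQ 4 (87). The cause was not tested. Il12rb1 and Il18bp were each called in 20 of 22 alternatives, all but the 2 covariate fits just named.

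Same-numbered control and ADQ libraries deviated together little (r from -0.11 to 0.16, 1 of 5 pairs over 0.1), so the numbers are not taken to pair the samples. With the replicate number as a block 694 genes (3.36%), 4 members and 15 pathway genes were called, and 1 of 5 controls correlated best with its own number. Library size alone moved the all-gene median log2 fold change to 0.097.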
